A study of Saccharomyces cerevisiae with 12 samples.

Results

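The response of baker's yeast to a replaced route to cytosolic acetyl-CoA was compared between 2 engineered strains, one grown with air and the other without oxygen. For each gene, the change in IMZ305 against its aerobic reference was set against the change in IMZ383 against its anaerobic reference, on the log2 scale. The difference between these changes, IMZ305 minus IMZ383, is called the difference between strain effects. It used all 12 arrays of the study, in 4 groups of 3 chemostat cultures, and was tested for all 9275 yeast probe sets, which include 5656 genes with a probe set of their own. A gene is described as lower when its change in IMZ305 lay below its change in IMZ383, and as higher when it lay above, whatever the direction of either change.

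The reference in both conditions was CEN.PK113-7D, a prototrophic laboratory strain of mating type a with the alleles MAL2-8C and SUC2. Both engineered strains were built in CEN.PK102-12A, which has the same mating type and alleles and in addition ura3-52, leu2-3,112 and his3-Δ1. In IMZ305 the ALD2-ALD3 locus was replaced by LEU2, ALD4 by HIS3, ALD5 by KanMX4, ALD6 by hphNT1, ACS2 by natNT2 and ACS1 by AmdS, and the plasmid pUDE151 carried URA3 and eutE of Escherichia coli. In IMZ383 ACS2 was replaced by HIS3 and ACS1 by LEU2, and the plasmid pUDE204 carried URA3 with pflB and pflA of Escherichia coli. All cultures were glucose-limited and ran at a dilution rate of 0.1 per hour, 30 °C and pH 5.0. The aerobic feed held 7.5 g of glucose per litre. The anaerobic feed held 20 g of glucose, 10 mg of ergosterol and 420 mg of Tween 80 per litre. The antifoam also differed. The route, the deleted genes, the plasmid, the oxygen supply and the feed therefore differ together in this contrast and cannot be told apart. The labels name 1 strain per route and number the cultures without saying whether they had separate inocula. The p-values measure the spread between these cultures.

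In wild-type yeast, cytosolic acetyl-CoA comes from pyruvate by way of acetaldehyde and acetate. Acetaldehyde dehydrogenases, encoded by the ALD genes, make the acetate, and the acetyl-CoA synthetases Acs1 and Acs2 activate it at the cost of ATP. Acetyl-CoA is the precursor of sterols and fatty acids and the donor for acetylation of histones. EutE is an acetylating acetaldehyde dehydrogenase, which turns acetaldehyde directly into acetyl-CoA and reduces NAD+. PflB is a pyruvate formate-lyase, an oxygen-sensitive enzyme activated by PflA, which splits pyruvate into acetyl-CoA and formate. Formate is oxidised by formate dehydrogenase or enters the folate-bound one-carbon pool, which glycine cleavage and serine hydroxymethyltransferase also feed and from which purines draw.

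The deposited signal had been scaled to a trimmed mean of 150.12 to 150.15 on every array, and 74.1% to 84.9% of yeast probe sets per array lay above the highest of 19 non-target controls. ACT1 signal from its 3' probe set over that from its 5' probe set, a measure of RNA integrity, was 1.67 to 1.90 in the anaerobic reference, 1.37 to 1.47 in IMZ383, 1.24 to 1.96 in the aerobic reference and 1.61 to 1.65 in IMZ305. Signals of the hybridisation control BioB were 6.5 to 11.5 on aerobic reference 1 and 2 and on all IMZ305 arrays, and 22.8 to 59.3 on the others. The labels were borne out by oxygen markers: ANB1, the hypoxic form of translation factor eIF5A, had means of 15.0 and 28.6 in the aerobic groups and 3174 and 2439 in the anaerobic groups. The a-cell genes MFA1, MFA2, STE2 and BAR1 were present in all groups. Of the alpha-cell genes, MF(ALPHA)2 had group means from 4.17 to 7.87. SAG1 (group means 46.1 to 63.2) and STE3 (22.5 to 37.4) lay above the highest control of the same array on every array. MF(ALPHA)1 (5.37 to 68.8) did so on all arrays but 1 of IMZ305. Most yeast probe sets passed the controls in this way, so it does not show that alpha-cell genes were expressed. The a-cell genes had higher group means, from 160 to 464 for BAR1 and from 859 to 3287 for MFA1. These genes alone do not settle the mating type.

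**Figure D1:**
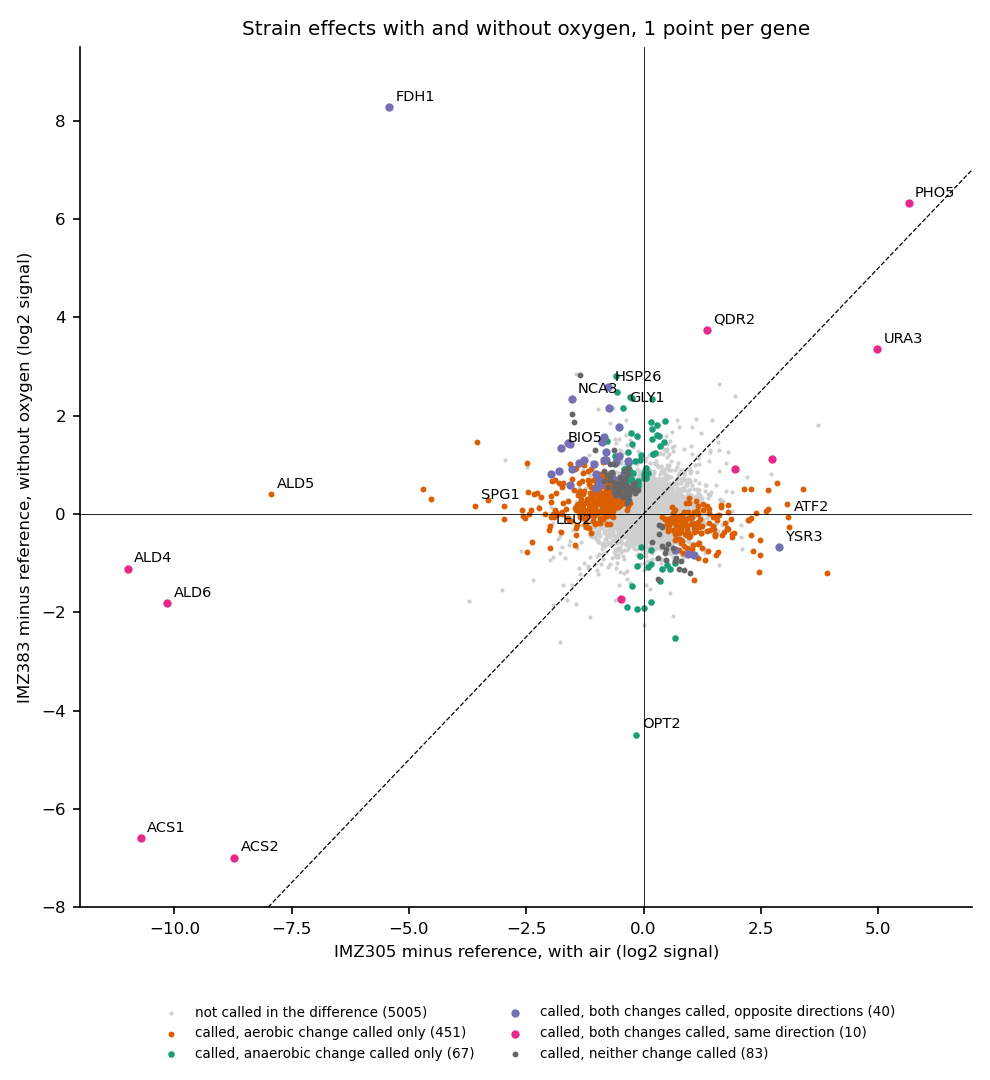
Change in IMZ305 with air (horizontal axis, log2) against the change in IMZ383 without oxygen (vertical axis, log2), 1 point per gene for 5656 genes, coloured by whether the difference and each change were called. On the dashed diagonal both changes are equal. Most coloured points spread along the horizontal axis (451 of 651 called genes had only the aerobic change called), and FDH1 lies alone at the upper left.

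At an adjusted p under 0.05, 823 of 9275 probe sets (8.87%) differed between the strain effects, 274 higher (2.95%) and 549 lower (5.92%). On genes, these were 651 of 5656 (11.5%), of which 193 were higher (3.41%) and 458 lower (8.1%). The call held in each of 12 fits that left out 1 array for 352 genes (6.22%), 99 higher and 253 lower; such genes are said below to have held. Counts in the gene lists below stand beside these shares of all genes, 11.5% called and 6.22% held. The median difference over all probe sets was -0.08, and the median size of the difference among the called was 1.31. The excess of lower calls depended on the scaling: 33.3% of calls were higher in the deposited scaling, 43.5% after quantile normalization and 51.1% after centring each array on its median, which moved the median of all probe sets to 0.00 and to 0.10. Leaving out IMZ305 replicate 2 or 1 or anaerobic reference 3 lowered the number of calls to 479, 515 and 517. In all 823 called probe sets the 9 pairwise aerobic differences lay on 1 side of the 9 anaerobic ones, as they did in 15.4% of all probe sets.

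Most called genes had a called change with air only. Of the 651 called genes, 451 (69.3%) had a called change in IMZ305 but not in IMZ383, 67 (10.3%) the reverse, and 83 (12.7%) had no called change in either strain. A further 40 (6.1%) changed in opposite directions, 36 of them falling in IMZ305 and rising in IMZ383, and 10 (1.5%) changed in the same direction by different amounts. The strain effects themselves were called for 1335 probe sets (14.4%) with air and 212 (2.29%) without oxygen. Counted over genes, 1030 (18.2%) were called with air, 7.23% of all genes being higher and 11.0% lower in IMZ305. Without oxygen 176 (3.11%) were called, 2.32% of all genes being higher and 0.796% lower in IMZ383. Across the 9275 probe sets the aerobic and anaerobic changes, which share no array, had a Pearson correlation of -0.01. A small difference could often not be resolved: the median 95% interval reached 0.77 to either side of the estimate, and the interval lay wholly within 1 of 0 for 2245 genes (39.7%).

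The loci that were engineered differently stood out first. ALD4, the gene of the main mitochondrial acetaldehyde dehydrogenase, had signals of 3034, 1979 and 3683 in the aerobic reference, 1.4, 0.9 and 1.7 in IMZ305, 1181, 1087 and 1208 in the anaerobic reference and 570.2, 555 and 486 in IMZ383. All IMZ305 arrays lay at the level of the controls, and the other 3 groups did not overlap with them. The difference was at least -8.16 on the log2 scale (adjusted p = 2.11e-07) when signals below an array's highest control were raised to it. ALD6, the cytosolic enzyme, had signals of 1019.6, 1602 and 1208 in the aerobic reference, 0.1, 0.1 and 0.1 in IMZ305, 891, 1079.8 and 1188 in the anaerobic reference and 344, 329 and 231 in IMZ383. It was lost from IMZ305 and also fell 3.52-fold in IMZ383 (log2 -1.82 ± 0.20 SE), where the gene is intact, as ALD4 did (2.16-fold, log2 -1.11 ± 0.23). ALD5 was likewise lost from IMZ305, with 0.41 ± 0.13 in IMZ383, not called. ALD2 and ALD3 had low signals in every group, with means of at most 33.6, and differences of at least -2.81 and -3.38.

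ACS1 and ACS2 were deleted in both strains, and their signals lay at background in both. ACS1 measured 2738, 952 and 2452 in the aerobic reference, 0.4, 0.5 and 0.3 in IMZ305, 124, 104 and 94.3 in the anaerobic reference and 0.5, 0.3 and 0.5 in IMZ383. Its call (-4.12 ± 0.47) therefore carries the difference between the references, in which ACS1 was high with air and low without oxygen, and gives no measure of the strains. The value for ACS2 (-1.73 ± 0.34) gives no measure of the strains either, but its references were closer, with means of 765 with air and 601 without oxygen. Its means of 1.83 in IMZ305 and 4.87 in IMZ383 lay at or near the controls. The call of ACS2 was lost when the floor was set at the highest control. Among the markers, URA3, carried by both plasmids, measured 91.2, 85.8 and 84.2 in the aerobic reference, 2725, 2667 and 2843 in IMZ305, 55.2, 76.8 and 61.3 in the anaerobic reference and 735, 627 and 616 in IMZ383. Both strains lay far above both references, and the rise was 31.5-fold in IMZ305 and 10.3-fold in IMZ383, a difference of 1.61 ± 0.18 (adjusted p = 0.00102). LEU2, reinserted at the ALD2-ALD3 locus in IMZ305 and at ACS1 in IMZ383, measured 1263, 1446 and 1205 in the aerobic reference, 361, 335 and 277 in IMZ305, 2121, 2192 and 2149.8 in the anaerobic reference and 1606, 1807 and 1726 in IMZ383. It fell 4.04-fold in IMZ305 and was not called in IMZ383 (-0.33 ± 0.11), a difference of -1.68 ± 0.16 (adjusted p = 0.000515). HIS3, reinserted in both, rose in both, and its difference of -0.20 ± 0.21 was not called (95% interval -0.69 to 0.28).

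One-carbon genes carried the lowest difference of all genes. FDH1 encodes NAD-dependent formate dehydrogenase, which oxidises formate to CO2. Its signal was 2303, 1611 and 1924 in the aerobic reference, 47.8, 44.9 and 42.1 in IMZ305, 1, 1.5 and 4 in the anaerobic reference and 468, 626 and 676 in IMZ383. With air it was high in the reference and low in IMZ305, and without oxygen it was at background in the reference and high in IMZ383, with no overlap between groups. It fell 42.9-fold in IMZ305 and rose at least 112-fold in IMZ383, so that the difference was at least -12.23 on the log2 scale (-13.70 ± 0.57 as measured, adjusted p = 1.46e-06). The probe set is shared with near-identical FDH2 sequence, and their signals cannot be separated. Another shared probe set gave a difference of at least -12.05. The FDH1 probe set that is not of the shared type stayed near the controls in all groups. Its means were 2.23 in the aerobic reference, 1.07 in IMZ305, 1.17 in the anaerobic reference and 2.83 in IMZ383. Its difference of -1.58 ± 0.94 was not called, so the result rests on the shared probe sets.

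The GCV genes of the glycine cleavage complex, which releases a one-carbon unit from glycine in mitochondria, differed the other way. GCV1, its T subunit, measured 371, 438 and 399.5 in the aerobic reference, 312, 281 and 359.6 in IMZ305, 615, 581 and 556 in the anaerobic reference and 137, 171 and 161 in IMZ383. The IMZ383 arrays were the lowest of the 12 and the anaerobic reference arrays the highest, while the change with air was small. GCV1 fell 3.75-fold in IMZ383, against -0.35 ± 0.12 in IMZ305, which was not called, for a difference of 1.56 ± 0.17 (adjusted p = 0.00102). GCV2, the P subunit, measured 242, 326 and 409 in the aerobic reference, 346, 339.8 and 382 in IMZ305, 344, 382 and 399 in the anaerobic reference and 74.5, 126 and 133 in IMZ383 and differed by 1.96 ± 0.34. GCV3, the H subunit, measured 2233, 2174 and 2176 in the aerobic reference, 1972, 1766 and 1858 in IMZ305, 2714, 3112 and 2370 in the anaerobic reference and 934, 878 and 1143 in IMZ383 and differed by 1.24 ± 0.18. Both fell in IMZ383, to below every other array, and neither change was called in IMZ305. SHM2, the cytosolic serine hydroxymethyltransferase, followed them, with -1.07 ± 0.13 in IMZ383, 0.10 ± 0.13 in IMZ305 and a difference of 1.17 ± 0.18. LPD1, of the same complex, and SHM1 were not called in the difference.

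GLY1, threonine aldolase, which makes glycine from threonine, moved opposite to the cleavage genes. It measured 348, 249 and 486 in the aerobic reference, 284, 252 and 234 in IMZ305, 196, 183 and 198 in the anaerobic reference and 848, 932 and 784 in IMZ383. It rose 4.44-fold in IMZ383 above every other array and was not called in IMZ305 (-0.44 ± 0.21), a difference of -2.60 ± 0.29 (adjusted p = 0.00106). Of the 19 measured genes of the list on glycine cleavage, one-carbon units and formate, 7 were called, 5 higher and 2 lower. FDH1, GLY1, SHM2 and the 3 GCV genes held, and 14 of the 19 differences were positive (median 0.46).

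Among 25 genes of purine synthesis, which uses one-carbon units, 6 were called higher and 3 lower (median 0.14), and 3 and 2 held. ADE1, of the middle of the pathway, fell in IMZ383 (-1.36 ± 0.22) and was not called in IMZ305 (0.35 ± 0.22); its difference was 1.71 ± 0.31. HPT1, which salvages hypoxanthine and guanine, measured 408, 286 and 506 in the aerobic reference, 663, 617 and 703 in IMZ305, 833, 1028 and 851 in the anaerobic reference and 529, 516 and 574 in IMZ383. It rose 1.69-fold in IMZ305, was -0.74 ± 0.19 in IMZ383, not called, and differed by 1.50 ± 0.26. ADE16, which makes IMP from a formylated precursor, opposed them: it fell in IMZ305 (-0.56 ± 0.07) and rose in IMZ383 (0.41 ± 0.07). The number of higher purine genes was 3 without any one of IMZ305 replicate 1, 2 or 3, anaerobic reference 2 or 3, or IMZ383 replicate 2 or 3, 3 with no floor or with the floor at each array's highest control, and 2 with the ACT1 ratio as a covariate, which also ended the calls of ADE1 and HPT1.

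**Figure D2:**
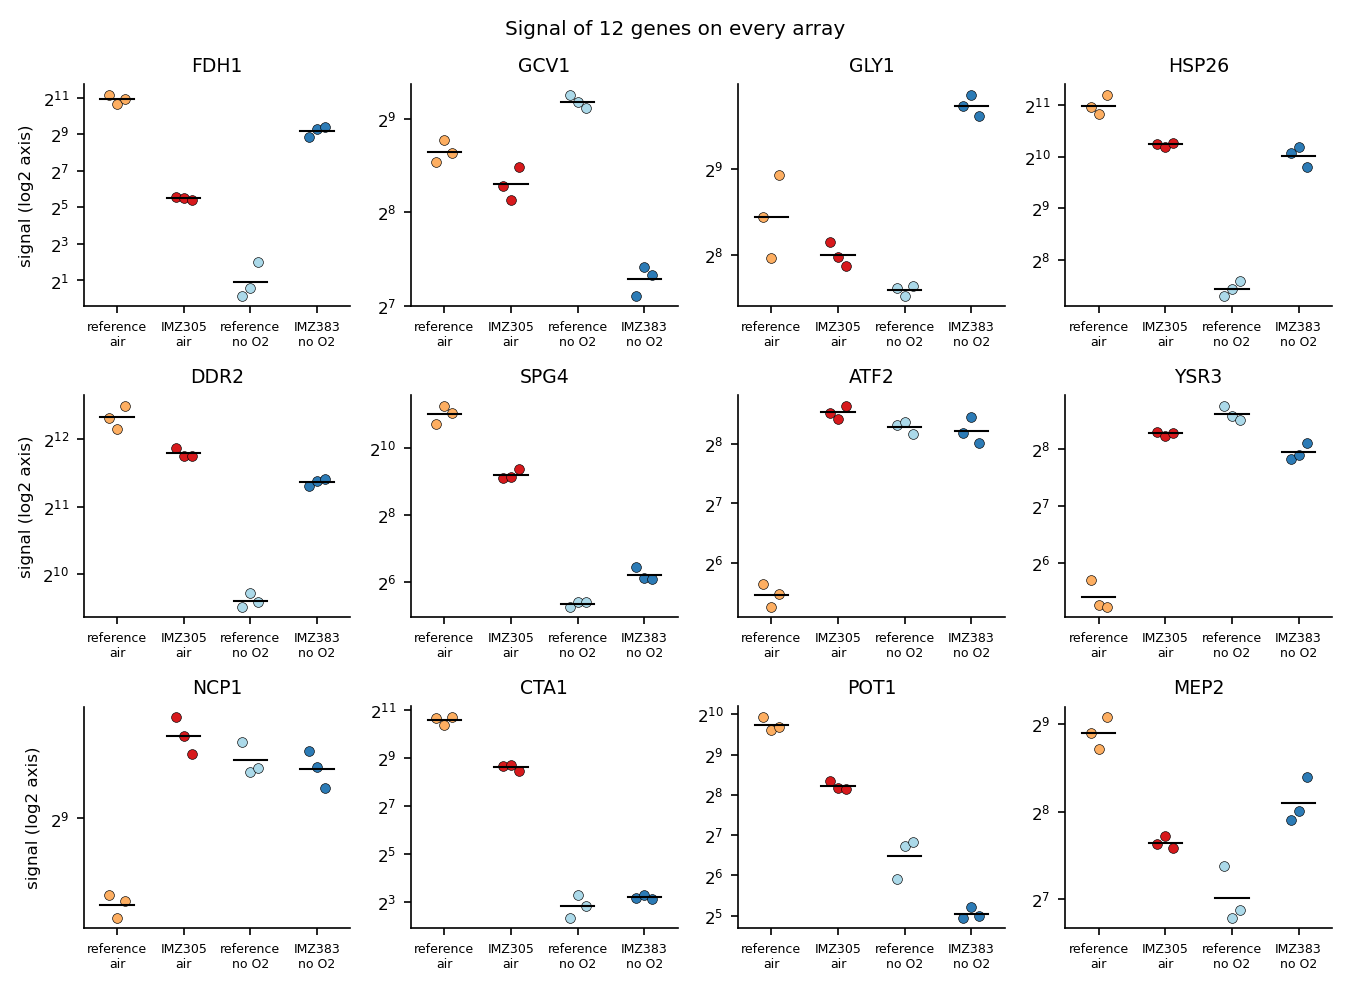
Signal of 12 genes on each array (points, vertical log2 axis, floored at 1.1) in the 4 groups, with the mean of the log2 values as a bar. FDH1, HSP26, DDR2, SPG4 and MEP2 go down from reference to IMZ305 and up from reference to IMZ383; GCV1 and GLY1 move mainly without oxygen; ATF2, YSR3, NCP1 and CTA1 move mainly with air; POT1 goes down in both.

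The broadest group was that of general stress genes, the small heat shock proteins and targets of Msn2 and Msn4 that yeast induces as growth slows or conditions worsen. Of 30 measured, 17 (56.7%) were called lower and none higher by limma (1 higher at an unadjusted p under 0.05), 27 of 30 differences were negative, and the median was -1.25. Leaving out any 1 array left 16 or 17 calls, and 16 held. One of the 17, ALD3, is deleted in IMZ305. Of the others, 7 fell in IMZ305 and rose in IMZ383: HSP26, SPG4, DDR2, GAD1, HSP12, SPI1 and SOD2.

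HSP26, a small heat shock chaperone, measured 1982, 1805 and 2356 in the aerobic reference, 1211, 1171 and 1238 in IMZ305, 158, 173 and 193 in the anaerobic reference and 1074, 1164 and 893 in IMZ383. The anaerobic reference was far below the other groups. The gene fell 1.69-fold in IMZ305 and rose 5.96-fold in IMZ383, a difference of -3.33 ± 0.19 (adjusted p = 1.55e-05). DDR2, a stress gene of unknown function, measured 5125, 4558 and 5801 in the aerobic reference, 3761, 3454 and 3459.5 in IMZ305, 729, 842 and 767 in the anaerobic reference and 2532, 2679 and 2719.7 in IMZ383. It fell 1.45-fold and rose 3.40-fold, a difference of -2.30 ± 0.15. HSP12, a membrane-stabilising stress protein, measured 4635, 4368 and 3728 in the aerobic reference, 2955, 2909 and 2897 in IMZ305, 1145, 1595 and 1728 in the anaerobic reference and 3266, 3516 and 3163 in IMZ383 and differed by -1.71 ± 0.21. In all 3 genes the aerobic reference was highest and the anaerobic reference lowest, while IMZ305 lay above IMZ383 for HSP26 and DDR2 and below it for HSP12.

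Others differed mainly from one side. SPG1, needed for survival in stationary phase at high temperature, measured 654, 446 and 477 in the aerobic reference, 43.2, 43.9 and 42 in IMZ305, 6.8, 5.5 and 8.3 in the anaerobic reference and 5.4, 8.3 and 9.9 in IMZ383. It fell 12.0-fold in IMZ305, while both anaerobic groups stayed near the controls. SIP18, a protective protein induced by drying and osmotic stress, measured 448, 365 and 324 in the aerobic reference, 47.1, 50 and 46.8 in IMZ305, 17, 28.4 and 27.7 in the anaerobic reference and 27, 27.6 and 25.8 in IMZ383. It too fell 7.83-fold in IMZ305 without a called change in IMZ383. By contrast YGP1, a secreted glycoprotein of starved cells, and HSP30, a regulator of the plasma membrane proton pump, rose 5.11-fold and 5.02-fold in IMZ383 and were not called in IMZ305 (-0.24 ± 0.24 and 0.18 ± 0.15). The stress regulators themselves, MSN2 and MSN4, were not called in the difference (-0.42 ± 0.27 and -0.41 ± 0.27).

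**Figure D3:**
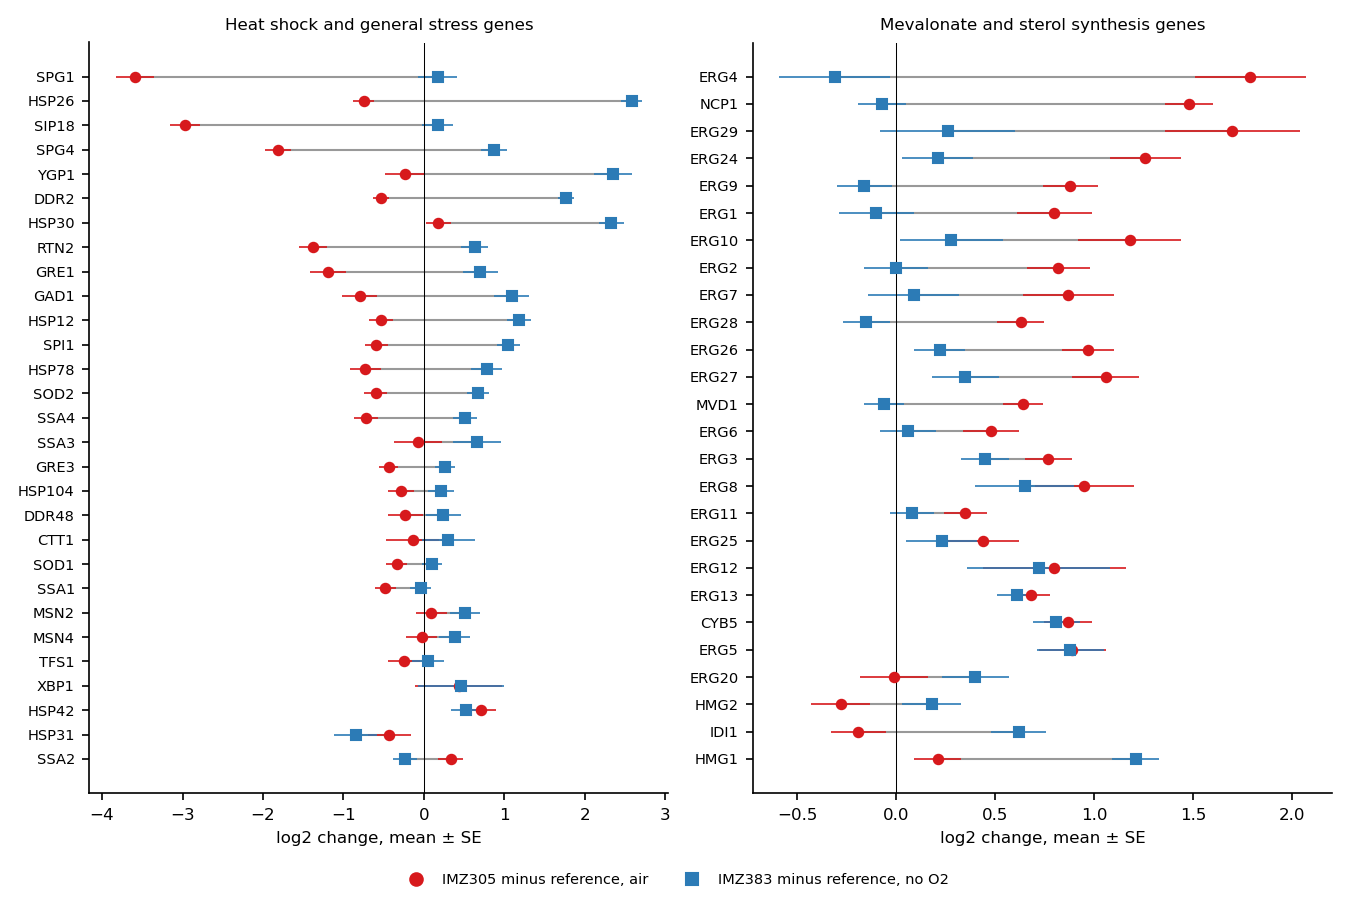
Change in IMZ305 with air (circles) and in IMZ383 without oxygen (squares), mean log2 change ± SE, for the stress genes other than ALD3 (left) and the genes of mevalonate and sterol synthesis (right), ordered by the difference. In the upper part of the left panel the circles lie left of the squares, as for HSP26 (-0.75 and 2.58). In the right panel most circles lie right of the squares, with HMG1 at the bottom as the reverse (0.21 and 1.21).

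Genes of glycogen and trehalose, the storage carbohydrates, went the same way. Of 23 measured, 22 had a negative difference (median -0.85), 6 were called lower and 1 higher, and 5 of the 6 held. GSY2, the main glycogen synthase, measured 444, 264 and 330.3 in the aerobic reference, 95.5, 106 and 109.5 in IMZ305, 180, 168 and 202 in the anaerobic reference and 279, 284 and 283 in IMZ383. It fell 3.27-fold in IMZ305 to below every other array and was 0.63 ± 0.17 in IMZ383, not called, a difference of -2.34 ± 0.24 (adjusted p = 0.000679). GPH1, glycogen phosphorylase, fell 3.70-fold in IMZ305 and was 0.08 ± 0.15 in IMZ383, so that the synthesising and the degrading enzyme were both lower. The trehalases NTH2 and ATH1 fell in IMZ305, and TSL1, a subunit of the trehalose synthase complex, rose in IMZ383 (1.27 ± 0.22). PGM1, the minor phosphoglucomutase, was the 1 gene with a positive difference (1.01 ± 0.17). There were 10 lower calls without aerobic reference 2, 11 with log2(signal + 16) and 12 with array weights.

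Sterol genes differed in the other direction. Of 26 genes of the mevalonate and ergosterol pathway, 22 had a positive difference (median 0.56). Of these genes 7 were called higher, of which NCP1, ERG4, ERG9 and MVD1 held, and 2 lower, HMG1 and IDI1. NCP1, the reductase that supplies electrons to the sterol P450 enzymes, measured 321, 279.9 and 311 in the aerobic reference, 949, 842 and 756 in IMZ305, 815, 679 and 697 in the anaerobic reference and 768, 700.2 and 616 in IMZ383. Only the aerobic reference stood apart, below all other arrays. NCP1 rose 2.78-fold in IMZ305 and was -0.07 ± 0.12 in IMZ383, a difference of 1.55 ± 0.18 (adjusted p = 0.00112). ERG4, of the last step to ergosterol, measured 304, 455 and 303 in the aerobic reference, 1169, 1146 and 1305 in IMZ305, 683, 595 and 643 in the anaerobic reference and 319, 612 and 704 in IMZ383 and rose 3.47-fold in IMZ305 alone of the strain effects called, with a difference of 2.10 ± 0.39.

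HMG1, the major HMG-CoA reductase isoform with air and a rate-limiting step of the pathway, was the lower call that held. It measured 2578, 1999.8 and 2198 in the aerobic reference, 2658, 2776 and 2378 in IMZ305, 362, 407 and 358 in the anaerobic reference and 923, 799 and 889 in IMZ383. Levels were high with air in both strains and low without oxygen, and HMG1 rose 2.32-fold in IMZ383 and not in IMZ305 (0.21 ± 0.12), a difference of -1.0 ± 0.16 (adjusted p = 0.00703). Other pathway genes changed alike: ERG5, CYB5 and ERG13 rose in both strains, and ERG5 differed by 0.01 ± 0.24 (95% interval -0.52 to 0.54). The number of higher sterol genes was 4 without IMZ305 replicate 1 or 2, anaerobic reference 2 or IMZ383 replicate 1, 4 with the ACT1 ratio as a covariate, 3 with no floor or with the floor at each array's highest control, and 11 with array weights.

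Of 17 genes of sterol uptake, sterol esters and their regulators, 6 were called higher and 1 lower (median 0.97). ATF2, an acetyltransferase that acts on sterols and alcohols, measured 49.7, 38.1 and 44.4 in the aerobic reference, 369, 345 and 402 in IMZ305, 320.1, 332 and 288 in the anaerobic reference and 291, 352 and 259 in IMZ383. The aerobic reference lay apart below the other 3 groups, whose arrays overlapped one another in part. ATF2 rose 8.47-fold in IMZ305 and was -0.07 ± 0.14 in IMZ383, a difference of 3.15 ± 0.20 (adjusted p = 3.36e-05). HES1, a sterol-binding homolog of the oxysterol-binding protein, rose at least 4.69-fold in IMZ305 from a level near the controls. TIR1 and TIR3, cell wall mannoproteins of anaerobic cells, rose in IMZ305 (1.57 ± 0.18 and 1.88 ± 0.24) but stayed far below the anaerobic groups. TIR1 measured 94.1, 85.2 and 102 in the aerobic reference, 334, 268 and 237 in IMZ305, 7536, 7301 and 6386 in the anaerobic reference and 5029.7, 6955 and 7594 in IMZ383. ARE2, the main sterol acyltransferase with air, was the lower call, and it was lost without any one of 8 arrays: aerobic reference 1 or 3, IMZ305 replicate 1 or 2, anaerobic reference 1 or 2, or IMZ383 replicate 1 or 2.

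YSR3, a dihydrosphingosine phosphate phosphatase, gave the highest difference among the genes that held and had measured signals in the compared groups. It measured 51.5, 38.2 and 37.1 in the aerobic reference, 316, 299 and 313 in IMZ305, 435, 384 and 363 in the anaerobic reference and 227, 236 and 276 in IMZ383. The aerobic reference was low and the other groups were high, with the anaerobic reference above both strains. YSR3 rose 7.40-fold in IMZ305 and fell 1.60-fold in IMZ383, a difference of 3.57 ± 0.20 (adjusted p = 1.38e-05). Among 22 hypoxic genes and their repressor, YSR3 was the one that held as higher, and HMX1, heme oxygenase, the one that held as lower. These were the only calls of the list, a share of 9.1% beside 11.5% of all genes called and 6.22% held. HMX1 rose 2.30-fold in IMZ383 from a low level (326, 292 and 354 in the aerobic reference, 329, 309 and 294 in IMZ305, 13.8, 17.8 and 17.5 in the anaerobic reference and 31.6, 35.2 and 46.8 in IMZ383). PAU3 and PAU16, of a seripauperin family with near-identical copies, rose in IMZ305 (2.62 ± 0.31 and 2.30 ± 0.25) and not in IMZ383, and their signals may include other members.

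Beta-oxidation of fatty acids, which takes place in peroxisomes in yeast and yields acetyl-CoA there, split into genes that differed and genes that did not. Of 22 measured, 8 were called lower and none higher by limma (1 higher at an unadjusted p under 0.05), 17 differences were negative (median -0.85), and 15 genes fell in IMZ305 against 2 in IMZ383. CTA1, peroxisomal catalase, measured 1618, 1325 and 1698 in the aerobic reference, 407, 415 and 352 in IMZ305, 5, 9.7 and 7.2 in the anaerobic reference and 9.1, 9.7 and 8.6 in IMZ383. It fell 3.94-fold in IMZ305 and was near the controls in both anaerobic groups, a difference of -2.35 ± 0.30 (adjusted p = 0.00206). PXA1, a subunit of the importer of long-chain fatty acids, measured 220.2, 222 and 219 in the aerobic reference, 77.1, 91.8 and 94.6 in IMZ305, 11.5, 9.2 and 10.2 in the anaerobic reference and 13.2, 12.3 and 11.6 in IMZ383 and differed by -1.60 ± 0.16. ECI1, an enoyl-CoA isomerase, ADR1, the activator of many of these genes, and MDH3, peroxisomal malate dehydrogenase, also held, at -1.81 ± 0.34, -1.53 ± 0.24 and -0.93 ± 0.16.

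POT1, the thiolase that releases acetyl-CoA, fell in both strains by nearly the same factor. It measured 983, 778 and 818 in the aerobic reference, 325, 289.5 and 283 in IMZ305, 60.3, 107 and 113 in the anaerobic reference and 30.7, 37.2 and 32.1 in IMZ383. Although its level was lower without oxygen, it fell 2.86-fold in IMZ305 and 2.71-fold in IMZ383, and the difference of -0.08 ± 0.31 had a 95% interval of -0.79 to 0.62. The anaerobic signals of CTA1 and PXA1 lay near the highest control of any array (7.5). The count of 8 became 5 without aerobic reference 1 or 3, IMZ305 replicate 1 or 2, or anaerobic reference 2 or 3.

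In fatty acid synthesis and activation, ELO1, an elongase of medium-chain fatty acids, measured 680.2, 627 and 538 in the aerobic reference, 324, 343 and 284 in IMZ305, 386, 444 and 466 in the anaerobic reference and 649, 632 and 815 in IMZ383. FAA4, an acyl-CoA synthetase, measured 348, 318 and 404 in the aerobic reference, 169.7, 178 and 181 in IMZ305, 304, 346 and 307 in the anaerobic reference and 466, 465 and 444 in IMZ383. Both genes fell in IMZ305 and rose in IMZ383 without overlap between strain and reference, with differences of -1.64 ± 0.20 and -1.54 ± 0.14. These were the genes of 16 that held. FAS1, a subunit of fatty acid synthase, was called but changed little (-0.44 ± 0.11). FAT3, involved in fatty acid uptake, fell 10.0-fold in IMZ305 and was 0.29 ± 0.32 in IMZ383, a difference of -3.61 ± 0.45.

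**Figure D4:**
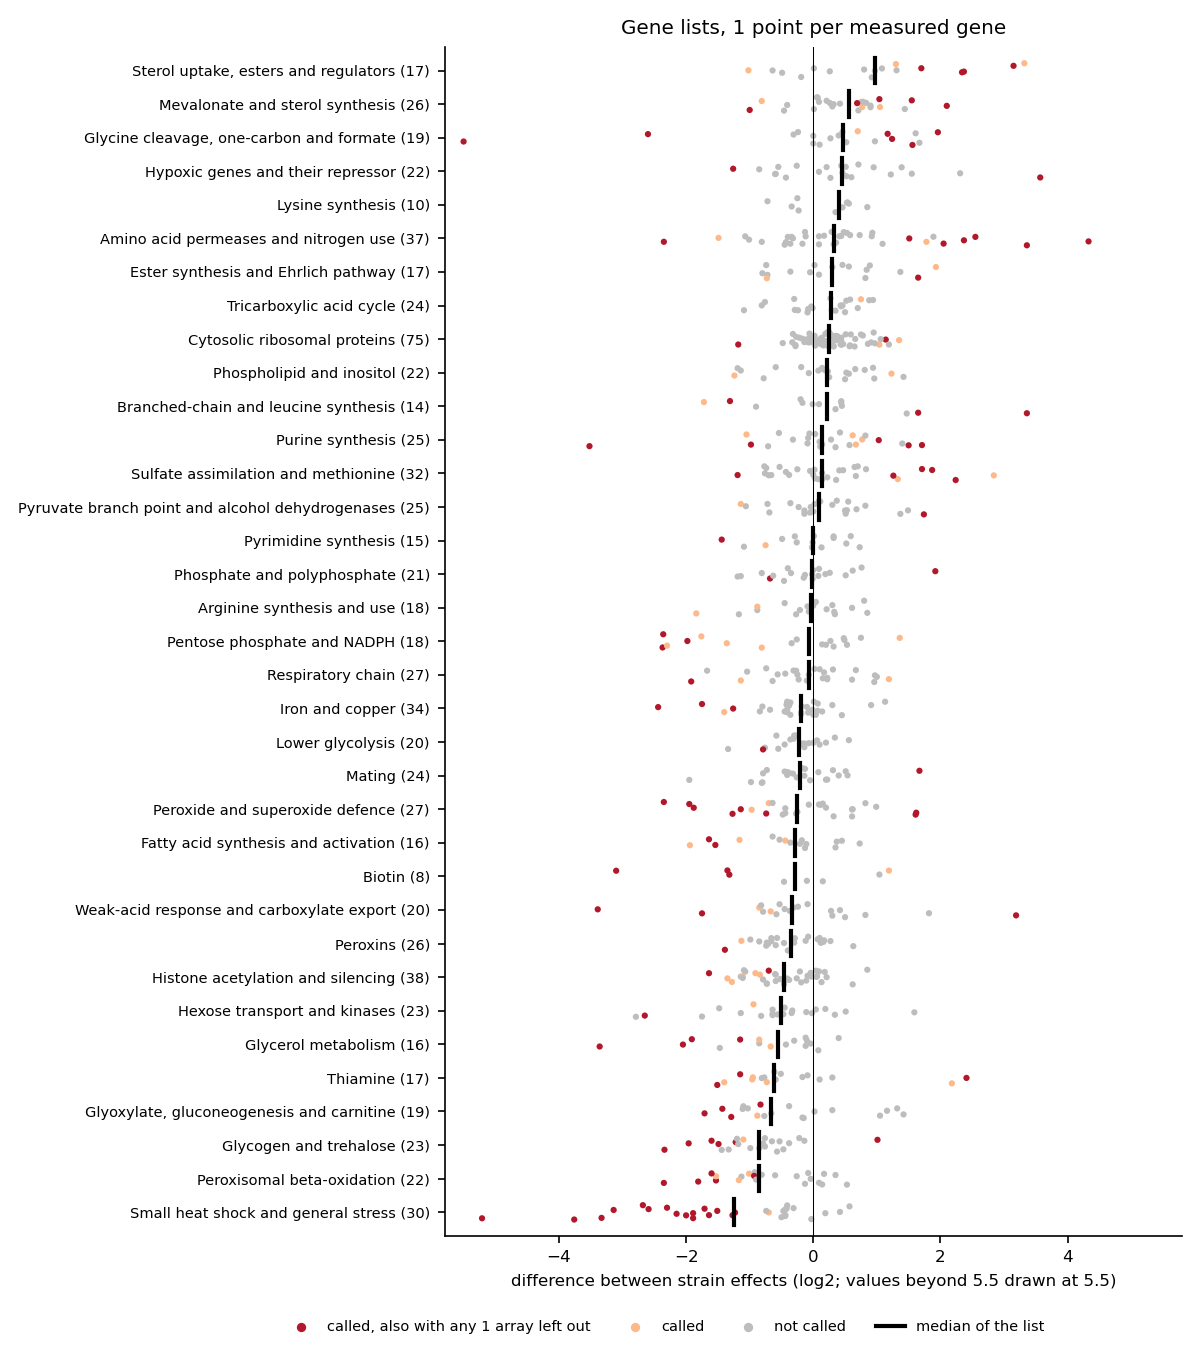
Difference between strain effects (horizontal axis, log2, IMZ305 change minus IMZ383 change) for the measured genes of 35 lists, 1 point per gene, with the number measured after each name and the median as a bar. Dark red points held in every fit with 1 array left out. The stress list has the lowest median (-1.25) and the list of sterol uptake and esters the highest (0.97).

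Of 19 genes of the glyoxylate cycle, gluconeogenesis and carnitine shuttle, 5 were called lower and none higher by limma (median -0.66, 4 higher at an unadjusted p under 0.05), and SIP4, SFC1, FBP1 and IDP2 held. SIP4, an activator of gluconeogenic genes, measured 197, 160.5 and 241 in the aerobic reference, 166, 204 and 172 in IMZ305, 8.7, 11.9 and 9.4 in the anaerobic reference and 32.7, 32.5 and 24.3 in IMZ383. It rose 2.98-fold in IMZ383 and was not called in IMZ305 (-0.13 ± 0.19), a difference of -1.71 ± 0.27. SFC1, the mitochondrial succinate-fumarate carrier, and FBP1, fructose-1,6-bisphosphatase, fell in IMZ305 and were near the controls without oxygen. After quantile normalization or median centring, 3 were lower and 2 higher, 3 were lower with the floor at each array's highest control, and 2 were also higher without aerobic reference 1 and 1 without aerobic reference 2, anaerobic reference 2 or IMZ383 replicate 3.

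Among 16 glycerol genes, 6 were called lower and none higher by limma (median -0.55, 0 higher at an unadjusted p under 0.05). GUT1, glycerol kinase of the glycerol-degrading route, measured 471, 418 and 402 in the aerobic reference, 120.3, 118 and 92.8 in IMZ305, 144, 99.6 and 120 in the anaerobic reference and 112, 128 and 106 in IMZ383. It fell 3.91-fold in IMZ305 and was -0.06 ± 0.16 in IMZ383, and its level in IMZ305 came to that of both anaerobic groups. GCY1, a glycerol dehydrogenase, fell in IMZ305 (-0.80 ± 0.22) and rose in IMZ383 (1.26 ± 0.22). With the ACT1 ratio as a covariate, 3 genes were lower and DAK2, dihydroxyacetone kinase, lost its call. In the list of pentose phosphate and NADPH genes, 7 of 18 were called lower and 1, RPE1, higher. The median of -0.06 turned positive after quantile normalization (0.04) and median centring (0.12). NQM1 and GND2, the minor isoforms of transaldolase and phosphogluconate dehydrogenase, and GOR1, glyoxylate reductase, held, at -2.37 ± 0.30, -2.36 ± 0.40 and -1.98 ± 0.22. The lower count was 4 without IMZ305 replicate 1 or after median centring and 3 without IMZ305 replicate 2.

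HXT5, a hexose transporter of slow-growing cells, measured 946, 839 and 823 in the aerobic reference, 883, 825 and 498 in IMZ305, 32.4, 12.7 and 16.6 in the anaerobic reference and 111, 106 and 81.2 in IMZ383. It rose 5.18-fold in IMZ383 and overlapped between IMZ305 and its reference, a difference of -2.65 ± 0.47 (adjusted p = 0.00977). It was the 1 of 23 hexose transport and kinase genes that held, of 3 lower calls that became 1 without aerobic reference 1 or IMZ305 replicate 1 or 2, after median centring and with the floor at each array's highest control. DLD3, a cytosolic lactate and 2-hydroxyglutarate dehydrogenase, was the 1 gene of 25 in the pyruvate branch point list that held (4.0%). It measured 81, 120.3 and 120.5 in the aerobic reference, 298, 309 and 283 in IMZ305, 524, 654 and 583 in the anaerobic reference and 505, 572 and 415 in IMZ383 and rose 2.81-fold in IMZ305 alone of the changes called. The genes that held numbered 0 of 24 in the tricarboxylic acid cycle, 1 of 27 in the respiratory chain (NDE2 at -1.92 ± 0.36), 1 of 20 in lower glycolysis (PFK26 at -0.79 ± 0.16) and 2 of 75 among cytosolic ribosomal proteins (RPS26B at -1.18 ± 0.22 and RPL37B at 1.14 ± 0.23), beside 6.22% of all genes. In the tricarboxylic acid cycle limma called 1 gene, and 6 were higher and 2 lower at an unadjusted p under 0.05.

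Nitrogen and amino acid transport gave calls both ways. Of 37 permeases and genes of nitrogen use, 7 were called higher (median 0.32), and MEP2 was the lower call that held. DIP5, the permease of glutamate and aspartate, measured 20.6, 31.9 and 34.2 in the aerobic reference, 159, 187 and 185 in IMZ305, 894, 626 and 597 in the anaerobic reference and 865, 566 and 837 in IMZ383. It rose 6.25-fold in IMZ305, still below the anaerobic groups, which overlapped, and differed by 2.55 ± 0.35 (adjusted p = 0.00268). AGP1, a broad amino acid permease, rose 2.90-fold in IMZ305 and was -0.83 ± 0.21 in IMZ383, not called, a difference of 2.37 ± 0.30. BAP3, a permease of branched-chain amino acids, had aerobic reference signals at the controls and a difference of at least 1.68. The high-affinity ammonium permease MEP2 measured 478, 422 and 545 in the aerobic reference, 198, 211 and 191 in IMZ305, 167, 110.1 and 118 in the anaerobic reference and 239.9, 258 and 336 in IMZ383, fell 2.39-fold in IMZ305 and rose 2.12-fold in IMZ383, a difference of -2.35 ± 0.26 (adjusted p = 0.00102).

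OPT2, an oligopeptide transporter, had the highest fitted value (4.33 ± 0.48), but its signals in IMZ383 and in both aerobic groups lay at or near the controls. It measured 1.3, 0.4 and 1.3 in the aerobic reference, 0.4, 0.8 and 0.4 in IMZ305, 127, 42.6 and 95.6 in the anaerobic reference and 2.8, 4.3 and 3.8 in IMZ383. Only the anaerobic reference stood clear of the controls, so no size can be given. AQR1, an exporter of short-chain monocarboxylic acids and amino acids, had its aerobic signals near the controls too, with means of 4.17, 6.93, 86.3 and 15 in the same order of groups. YRO2, a relative of HSP30 in the weak-acid list, measured 283, 339 and 228 in the aerobic reference, 200.5, 185 and 172 in IMZ305, 67.5, 24.5 and 68.2 in the anaerobic reference and 384, 336 and 295 in IMZ383 and rose 6.96-fold in IMZ383 while it was not called in IMZ305.

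In sulfur metabolism, 6 of 32 genes were called higher (median 0.13), and MET32, a regulator of the pathway, was lower (-1.19 ± 0.18). MUP1, the high-affinity methionine permease, measured 122, 188 and 158 in the aerobic reference, 399.7, 336 and 405 in IMZ305, 99.7, 99.6 and 76.8 in the anaerobic reference and 33.5, 45.8 and 70.6 in IMZ383. It rose 2.47-fold in IMZ305 and was -0.94 ± 0.26 in IMZ383, not called, a difference of 2.24 ± 0.37. CYS3, cystathionine gamma-lyase, rose 2.56-fold in IMZ305 and differed by 1.71 ± 0.29. SUL1, a sulfate permease, fell in both strains, by more in IMZ383. It measured 963, 1122 and 991 in the aerobic reference, 754, 745 and 713 in IMZ305, 464, 428 and 383 in the anaerobic reference and 109, 139 and 138 in IMZ383, a fall of 1.39-fold with air and 3.31-fold without oxygen, and the difference of 1.26 ± 0.17 was called (adjusted p = 0.00252).

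Both vitamin lists had more lower than higher calls, 3 and 1 among biotin genes and 6 and 2 among thiamine genes. The higher biotin call, VHR2, did not hold. BIO5, which takes up a biotin precursor, measured 169, 106 and 169 in the aerobic reference, 39, 45.8 and 43.3 in IMZ305, 7.6, 9 and 8.2 in the anaerobic reference and 20.1, 17.8 and 25.3 in IMZ383. It fell 3.39-fold in IMZ305 and rose 2.53-fold in IMZ383, a difference of -3.10 ± 0.28 (adjusted p = 0.000397). Its anaerobic reference signals lay near the highest control of any array (7.5). BIO3 and BIO4, of the biotin synthesis pathway, rose in IMZ383 (0.91 ± 0.19 and 1.03 ± 0.13) and were not called in IMZ305, and these 3 of 8 biotin genes were lower in every fit with 1 array left out. Of 17 thiamine genes 6 were lower, with THI3 and THI7, a regulator and the thiamine transporter, holding at -1.51 ± 0.21 and -1.15 ± 0.14. The lower count was 2 without IMZ305 replicate 1 or anaerobic reference 3, 3 without IMZ305 replicate 2 or IMZ383 replicate 1, 2 after median centring and 3 with no floor. SNO1, of vitamin B6 synthesis, was higher (2.41 ± 0.42) and held, and SNZ1 was called higher but did not hold.

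URA1, dihydroorotate dehydrogenase of pyrimidine synthesis, measured 353, 261 and 322 in the aerobic reference, 381, 436 and 463 in IMZ305, 204, 252 and 237 in the anaerobic reference and 924, 816 and 835 in IMZ383. It rose 3.72-fold in IMZ383, with 0.46 ± 0.14 in IMZ305 not called, and differed by -1.44 ± 0.19 (adjusted p = 0.00241). Both strains carry URA3 on a plasmid, and URA1 was the pyrimidine gene of 15 that held (6.7%, beside 6.22% of all genes). OAC1, a mitochondrial oxaloacetate and isopropylmalate carrier of leucine synthesis, measured 508, 582 and 596 in the aerobic reference, 660.2, 648 and 754 in IMZ305, 644, 733 and 654 in the anaerobic reference and 1769.7, 2086 and 2349 in IMZ383. It rose 3.04-fold in IMZ383 only among the called changes, a difference of -1.31 ± 0.18. BAT2, the cytosolic branched-chain aminotransferase, rose 1.81-fold in IMZ305, was -0.80 ± 0.18 in IMZ383, not called, and differed by 1.65 ± 0.26. Of 10 lysine genes none was called by limma (2 at an unadjusted p under 0.05), and 1 was called higher without aerobic reference 2 or IMZ383 replicate 1.

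PHO89, a sodium-phosphate cotransporter, measured 185, 178 and 191 in the aerobic reference, 407, 402 and 364 in IMZ305, 50.2, 44.2 and 41.6 in the anaerobic reference and 24.3, 22.4 and 29.6 in IMZ383. It rose 2.11-fold in IMZ305 and fell 1.79-fold in IMZ383, a difference of 1.92 ± 0.17 (adjusted p = 0.000308). PHO5, the repressible acid phosphatase, rose in both strains from references below the controls, so that no size can be given for its difference. Of 34 iron and copper genes, 4 were called, all lower (median -0.19), a share of 11.8% beside 11.5% of all genes called. CTR3, a copper transporter, measured 1336, 1127 and 1418 in the aerobic reference, 216, 239 and 258 in IMZ305, 62.2, 51.7 and 38.8 in the anaerobic reference and 50.6, 36.8 and 66.4 in IMZ383. It fell 5.43-fold in IMZ305, and the anaerobic groups overlapped at a low level, a difference of -2.44 ± 0.33.

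Of 27 genes of peroxide and superoxide defence, 8 were lower and 2 higher, and 6 and 2 held (median -0.25). The lower count was 5 after median centring and with the floor at each array's highest control. CCP1, mitochondrial cytochrome c peroxidase, measured 159.9, 128 and 128 in the aerobic reference, 78, 82.8 and 69.1 in IMZ305, 73.5, 75.5 and 122 in the anaerobic reference and 188, 211 and 170 in IMZ383. It fell in IMZ305 (-0.85 ± 0.20) and rose in IMZ383 (1.10 ± 0.20), a difference of -1.95 ± 0.28, as SOD2, mitochondrial superoxide dismutase, did (-1.27 ± 0.20). GPX1 and PRX1, peroxidases, fell in IMZ305 alone of the called changes. TSA2, a minor cytosolic peroxiredoxin, was higher (1.61 ± 0.31), against the main direction. Among 38 genes of histone acetylation and silencing, 7 were lower (median -0.46), of which SET3 (-1.64 ± 0.28), of a histone deacetylase complex, and EAF3 (-0.70 ± 0.14), of a histone acetyltransferase and a deacetylase complex, held. That count fell to between 2 and 4 without aerobic reference 1 or 3, IMZ305 replicate 1 or 2, anaerobic reference 2 or 3, or IMZ383 replicate 1 or 2. It was 4 after median centring or with the floor at each array's highest control, 2 with the ACT1 ratio as a covariate and 12 with array weights. SET3 and EAF3 made up 5.3% of the list, beside 6.22% of all genes that held.

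Over all genes, list members described above included, 40 changed in opposite directions, and all 40 held. NCA3, a protein linked to expression of the mitochondrial ATP synthase, measured 449, 329.7 and 530.5 in the aerobic reference, 158, 144 and 142 in IMZ305, 50, 49.9 and 53.1 in the anaerobic reference and 283, 170.4 and 356 in IMZ383. It fell 2.89-fold in IMZ305 and rose 5.06-fold in IMZ383, a difference of -3.87 ± 0.36 (adjusted p = 0.000445). DCS2, a stress-induced regulator of mRNA cap breakdown, measured 452, 355 and 461 in the aerobic reference, 205, 193 and 209.7 in IMZ305, 103, 98 and 95.9 in the anaerobic reference and 192, 205 and 206 in IMZ383. Its strain changes were of nearly equal size, -1.05 ± 0.11 and 1.02 ± 0.11. SHH3, a homolog of a succinate dehydrogenase subunit, SUE1, needed to degrade unstable cytochrome c, FMP16, a mitochondrial protein, MBR1, of mitochondrial function, and ROQ1, of stress-induced protein degradation, had the same pattern. Their differences ran from -3.05 ± 0.39 for SHH3 to -2.36 ± 0.33 for ROQ1. For SUE1, whose anaerobic reference lay near the controls, the difference was at least -2.84. The 4 in the reverse direction, up in IMZ305 and down in IMZ383, were YSR3, PHO89, HMF1 and MRP4, the last 2 outside the rule for naming genes.

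**Figure D5:**
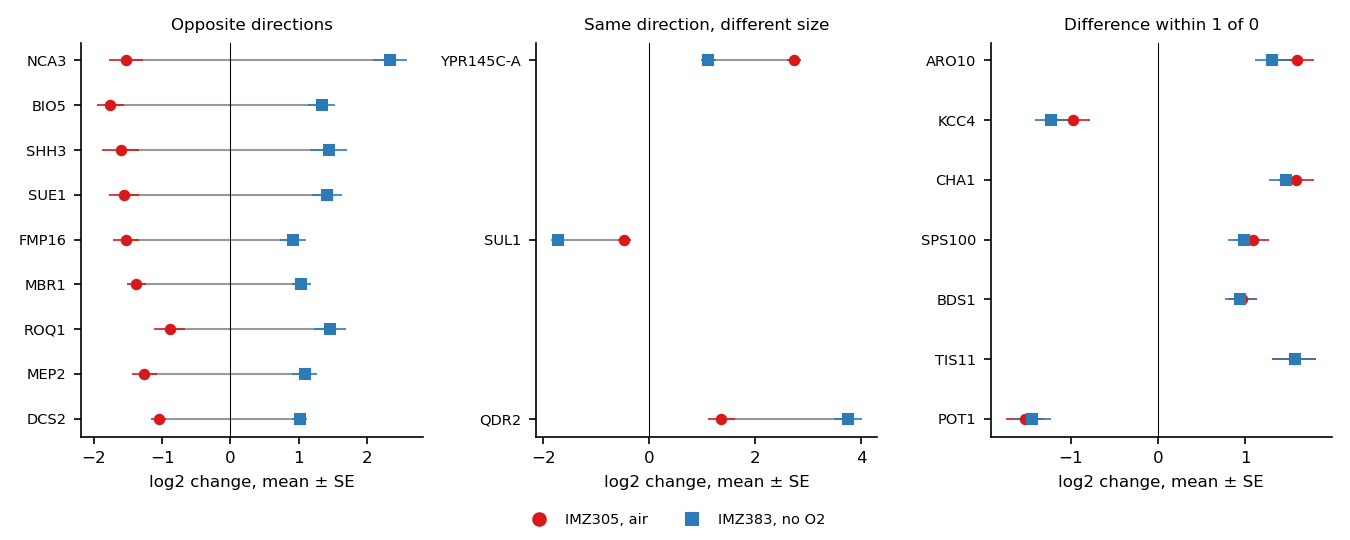
Change in IMZ305 with air (circles) and in IMZ383 without oxygen (squares), mean log2 change ± SE, for genes called in opposite directions (left, FDH1 not drawn), in the same direction with a called difference (centre) and in the same direction with a 95% interval of the difference within 1 of 0 (right). PHO5 is not drawn. Circles and squares lie on opposite sides of 0 on the left and nearly coincide for TIS11 and POT1 on the right.

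Genes that rose in both strains could still differ in size. QDR2, a multidrug and potassium exporter, measured 37, 46 and 21.1 in the aerobic reference, 89.5, 86.8 and 77.6 in IMZ305, 9.5, 11.4 and 13.4 in the anaerobic reference and 152, 178 and 130 in IMZ383. It rose 2.56-fold in IMZ305 and 13.4-fold in IMZ383, a difference of -2.39 ± 0.37 (adjusted p = 0.0054). YPR145C-A, an uncharacterised gene, rose by more in IMZ305 (2.73 ± 0.14 against 1.11 ± 0.14). In 23 genes called in the same direction in both strains the 95% interval of the difference lay within 1 of 0. TIS11, which destabilises mRNAs when iron is short, measured 25.4, 22.6 and 23.7 in the aerobic reference, 70.5, 72.9 and 68.1 in IMZ305, 17.5, 8.9 and 9.6 in the anaerobic reference and 43.2, 33 and 27.7 in IMZ383. It rose 2.95-fold in IMZ305 and 2.98-fold in IMZ383, and the difference of -0.01 ± 0.35 had an interval of -0.80 to 0.77. BDS1, a sulfatase, SPS100, a spore wall protein, and POT1 and KCC4, a kinase at the bud neck, had intervals of -0.52 to 0.57, -0.51 to 0.70, -0.79 to 0.62 and -0.36 to 0.86. For CHA1 and ARO10, which the same rule names, signals near the controls give no size for the difference.

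Of the other genes with the largest differences, CRF1, a corepressor of ribosomal protein genes, measured 227, 183 and 223 in the aerobic reference, 15.9, 17.5 and 20.5 in IMZ305, 7.7, 1.6 and 3.9 in the anaerobic reference and 9.6, 11.6 and 9.2 in IMZ383. It fell 11.8-fold in IMZ305, and its anaerobic signals lay near the controls, a difference of at least -4.17. HUG1, an inhibitor of ribonucleotide reductase, rose 5.57-fold in IMZ305, was -0.53 ± 0.21 in IMZ383, not called, and differed by 3.00 ± 0.29. YNL194C, a plasma membrane protein, differed by at least -3.01 although neither strain effect was called on its own (-1.52 ± 0.47 and 2.03 ± 0.47). FUS3, a mating kinase, was the mating gene of 24 that held (4.2%, beside 6.22% of all genes), and it was higher (1.67 ± 0.29). In the lists not described above, PEX5, the receptor for peroxisomal import, was the peroxin of 26 that held (-1.39 ± 0.20, list median -0.35). BAT2 was the gene of 17 in ester synthesis and the Ehrlich pathway that held (median 0.30). These are 3.8% and 5.9% of their lists, beside 6.22% of all genes. No gene held among 22 of phospholipid and inositol metabolism (median 0.22) or among 18 of arginine synthesis and use, whose median of -0.03 turned to 0.03 after quantile normalization and 0.14 after median centring. The medians of the lists on the respiratory chain (-0.07), pyrimidine synthesis (-0.01) and phosphate (-0.02) turned positive after median centring.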

How the data were processed

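Total RNA of 12 chemostat cultures was hybridised to 1-colour Affymetrix 3' arrays, 1 per culture, from 200 ng of RNA per the labels' protocols. The authors deposited 1 signal intensity per probe set on a linear scale, and the equal trimmed means show that the arrays had been scaled to a common level. The software for image analysis and scaling is not given in the sources used here. A shift of all transcripts together would be removed by such scaling. Arrays carry no read counts, and their number limits the precision.

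Of 9335 probe sets, 60 were controls. Of the 9275 tested, 6504 had 1 gene in the platform annotation, 328 several and 2443 none, and RefSeq matched all 5656 genes. A gene is represented by its probe set with the highest mean. Signals were floored at 1.1, the 10th percentile, before log2. limma 3.58.1 in R 4.3.3 fitted 1 mean per group over all 12 arrays (8 residual degrees of freedom), with two-sided moderated tests and Benjamini-Hochberg adjustment over all 9275 probe sets. Folds are powers of 2 of fitted log2 changes, and errors are standard errors with 3 arrays per group. For bounds, signals at or below the brightest non-target control of the same array were raised to that control, and the result is written as "at least". Near-identical genes share signal.

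The members and lists were chosen with earlier results of these data known. Genes are named if they held in every fit with 1 array left out, had a mean above the controls in a group, and had all 9 pairwise aerobic differences on 1 side of all 9 anaerobic ones. Of these, the text takes the 12 highest and 12 lowest, up to 4 per list by adjusted p, the 10 largest opposite changes, the 5 largest in the same direction, the 8 most alike by size, and always the engineered loci. Genes outside it were chosen after their values were seen. They include list members such as GCV2, SHM2, HSP12, HSP30, YGP1, TSL1, NTH2, ECI1, ERG5, TSA2, MSN2 and MSN4. In 20 sets of simulated data, 17.5% of differences of 1 and 56.7% of differences of 2 on the log2 scale were called, and 5.2% of calls were false. Each set had fewer changed probe sets than were called in the data, and normal noise drawn independently for each probe set. These rates therefore need not hold for the data, and effects shared across an array were not simulated. Alternatives covered scaling, floor, filter, probe sets per gene, replicate block, variance prior, array weights, ACT1 ratio, thresholds and each array left out. The Escherichia coli genes were not analysed here.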

Additional observations from a re-analysis of the deposited data

Results flagged for a closer look

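The contrast itself tests whether effects differ between conditions, and 823 probe sets passed it. Only some of the other called genes are described in the report. The following 10 are those called in opposite directions whose smaller change, of the one in IMZ305 and the one in IMZ383, was largest in size. HSP26, YSR3, SPG4 and DDR2, also called in opposite directions, are not among them although their differences exceed some of those listed. A total of 40 genes were called in opposite directions, down in IMZ305 with air and up in IMZ383 without oxygen for 36 of them. FDH1 differed by -13.70 on the log2 scale as measured. NCA3 differed by -3.87, BIO5 by -3.10, SHH3 by -3.05 and SUE1 by at least -2.84 (-2.99 as measured). FMP16 differed by -2.45, MBR1 by -2.42, ROQ1 by -2.36, MEP2 by -2.35 and DCS2 by -2.07. Groups of 3 arrays are too small for a test of single outlying arrays.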

How the results depend on the processing

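Of 108 named genes with a called difference, none reversed under any alternative. Those outside the engineered loci had been chosen for holding with each array left out, so those 12 fits cannot test them. All 108 kept their side of the threshold with a floor 2 times as high, 1 probe set per gene, the replicate block and array weights. The filter on low signal removed YDR042C, and the other 107 kept theirs. Calls lost were IDP2 after quantile normalization; EAF3, IDP2, PFK26 and PHO5 after median centring; ACS2, EAF3, IDP2, PFK26 and PHO5 with the floor at the highest control; PHO5 without a floor (zeros set to 0.1) and with the intensity trend; BAP3 with log2(signal + 16); and ADE1, DAK2, EAF3, HPT1, IDP2, PHO5 and RPL37B with the ACT1 ratio as a covariate. The cause of these losses was not tested. Median centring gave 322 lower calls in place of 549. Array weights gave 1449 calls (513 higher, 936 lower) and an adjusted p under 0.005 gave 185 (55 and 130), since that threshold is stricter. In the anaerobic strain effect, array weights gave 393 and the ACT1 ratio 124 calls in place of 212. Leaving out 1 array gave 479 to 997 calls in the difference (157 to 361 higher, 322 to 636 lower), 666 to 1323 in the aerobic and 133 to 250 in the anaerobic strain effect. The lowest of these were 666 without IMZ305 culture 2, 701 without IMZ305 culture 1, and 133 and 141 without anaerobic reference cultures 3 and 2. The replicate numbers were not used to pair the cultures, and a replicate block gave 634 calls (222 and 412). In their deviations from group means, same-numbered arrays correlated at -0.18 to 0.11 and differently numbered arrays at -0.15 to 0.24. With 3 arrays per group this cannot exclude a shared batch. Signals near the controls limit the size of 39 called genes to a bound, and 17 more have none.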
